A study of Mus musculus with 36 samples.

Results

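Mouse embryonic stem cells (mESCs) on a soft hydrogel in serum without LIF were compared with mESCs on a stiff hydrogel in serum + LIF, to see for which genes a soft substrate gave the level that LIF gave on a stiff one, and for which it did not. The comparison takes in 6 of the 36 libraries of the series, chosen by the names of their columns alone: 3 soft serum libraries and 3 stiff serum + LIF libraries, all collected at 48 h. No measured value entered that choice. The cells of both groups are labelled as embryonic stem cells of the genotype 129m wt, and neither group received PD03, the MEK inhibitor used elsewhere in the series. The labels call the substrates soft and stiff and give no modulus. By the study's methods they are StemBond hydrogels, polyacrylamide gels to which matrix protein is tethered covalently. The methods name E14 mESCs and a Rex1 reporter line and do not tie either name to these libraries. Nothing in the labels says that the libraries of a group came from separate cultures, so the p-values measure the spread between these libraries, which may be technical. Stiff serum (3 libraries) and soft serum + LIF (3 libraries), both at 48 h, serve as reference points.

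LIF is a cytokine that binds the receptor pair LIFR and gp130, activates JAK kinases and so the transcription factor STAT3. In mESCs STAT3 induces its own inhibitor Socs3 and naïve pluripotency factors such as Klf4 and Tfcp2l1, which is why LIF sustains self-renewal. When these signals weaken, ERK signalling carries the cells towards a formative state marked by Otx2, Pou3f1 and the de novo DNA methyltransferases. Cells feel the stiffness of a substrate through integrins and actomyosin. On stiff surfaces, polymerised actin frees the cofactors of SRF, which drives contractile genes, and YAP enters the nucleus to act with TEAD factors.

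The soft serum libraries held 20229312, 20360811 and 19694142 counts, and the stiff serum + LIF libraries 13929917, 14469665 and 19412658. Over the 6 pairs of libraries within a group, the chi-square per gene was 3.20 to 6.75, above the value near 1 that counting alone would give, and each library was kept as its own replicate. Mitochondrially encoded mRNA made up 0.852% to 1.22% of the counts in 10 of the 12 libraries at 48 h without PD03. It was 0.443% in library 2 of stiff serum and 0.480% in library 2 of soft serum + LIF, neither of which enters the main comparison. The sample descriptions begin with an SLX identifier, called a pool here. All soft serum libraries came from the third pool, while 1 stiff serum + LIF library came from the first and 2 from the second. No pool held libraries of both groups, so pool and group cannot be told apart within these 6 libraries. The stiff serum libraries came from the second pool, so the same holds for soft serum against stiff serum, while soft serum and soft serum + LIF shared the third.

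Few genes differed between the groups. A filter on low counts left 17702 genes to test. Soft serum had higher levels of 72 (0.407%) and lower levels of 86 (0.486%), 158 genes in all (0.893%), at a threshold of 0.05 on the edgeR adjusted p, and 1826 genes passed that threshold without adjustment. The libraries of the 2 groups did not overlap for any of the 158, beside 8.32% of all tested genes that were higher and 9.09% that were lower without overlap. All differences below are soft serum minus stiff serum + LIF on the log2 scale, given with the standard error (SE) of the edgeR fit, unless another pair is named. The median difference over all tested genes was -0.001 and the median SE 0.14. Differences were small. The median size was 0.31 among the higher genes and 0.46 among the lower ones, 12 higher and 32 lower genes exceeded 1.5-fold, and 3 higher and 5 lower genes exceeded 2-fold. In these bulk samples, fewer cells of a kind and less RNA per cell cannot be told apart.

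A p that misses the threshold does not show that a gene has the same level in both groups. A gene was therefore called matched when the 95% interval of its difference lay wholly within a margin of 0.32 on the log2 scale in either direction. By that measure 7373 genes (41.7%) matched, 10185 genes neither matched nor passed the test, and 14 genes passed the test while lying inside the margin. Matching followed the level of a gene. It held for 0 of 4097 genes under 1 CPM (counts scaled to a common library total), 5 of 3331 from 1 to 5 CPM, 1085 of 3402 from 5 to 20 CPM (31.9%), 4082 of 4597 from 20 to 100 CPM (88.8%) and 2201 of 2275 at 100 CPM or more (96.7%). For genes at 20 CPM or more the share was 91.4%, the background for the lists of genes below.

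**Figure D1:**
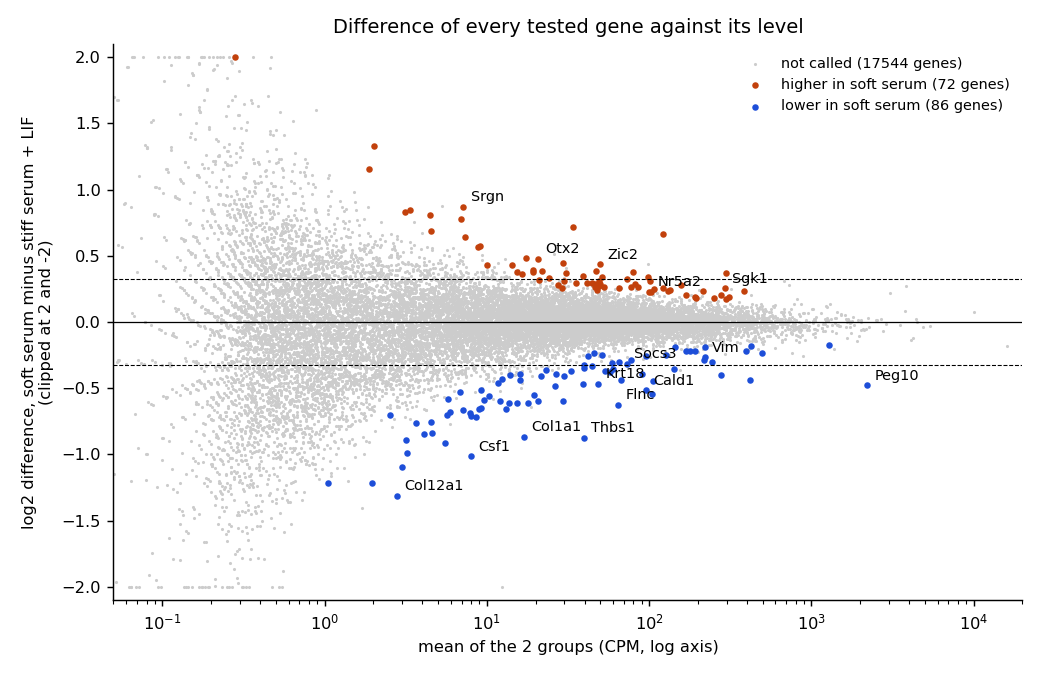
Difference between soft serum and stiff serum + LIF (vertical axis, log2; differences beyond the axis are drawn at its edge) against the mean level of the gene in the 2 groups (horizontal axis, CPM, log scale) for the 17702 tested genes. The 72 genes higher in soft serum are in orange-red, the 86 lower in blue, and the dashed lines mark the margin of 0.32. Above about 20 CPM nearly all points lie between the dashed lines, and the called gene farthest from 0 at those levels is Thbs1, at -0.87.

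Since the 3 comparisons among soft serum, stiff serum + LIF and stiff serum share libraries, their values are given side by side and not as support for each other. For every gene the main difference equals the effect of the soft substrate without LIF minus the effect of LIF on the stiff substrate. Soft serum and stiff serum differed in 858 genes (4.85%), of which 368 were higher (2.08%) and 490 lower (2.77%) in soft serum. A rise, fall or effect on the soft substrate names this difference below, in which substrate and pool cannot be told apart. No pool term was fitted to these side comparisons. LIF on the stiff substrate changed 249 genes (1.41%), of which 126 rose (0.712%) and 123 fell (0.695%). On the soft substrate LIF changed 3 genes (0.0169%), all higher with LIF: Socs3 by 0.40, Lama1, a laminin chain, by 0.31, and Vim by 0.23. The effect of the substrate differed with and without LIF for 15 genes (0.0847%), among them Tfcp2l1, Pou3f1, Zyx, Pim2, Thbs1 and Peg10. Without the libraries low in mitochondrial mRNA these counts were 614, 148, 0 and 1, and the main comparison gave 186 genes, 103 higher and 83 lower.

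Naïve pluripotency factors rose against stiff serum both on the soft substrate and with LIF, and few differed between these conditions. Of 15 factors tested, 11 matched, 1 was higher in soft serum and none was lower, and the list's median difference was 0.05. At 20 CPM or more, 11 of 13 matched (84.6%), near the 91.4% of all genes at that level. Against stiff serum, 12 of the 15 rose on the soft substrate (median 0.40) and 9 rose with LIF (median 0.30).

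Nanog, a homeobox factor at the centre of the naïve network, stood at 214, 235 and 230 CPM in soft serum and at 235, 212 and 219 CPM in stiff serum + LIF. The groups overlapped, both lay above the 176 ± 9.54 CPM (SD, n = 3) of stiff serum, and the interval of the difference ran from -0.09 to 0.14. The soft substrate raised Nanog by 0.36 and LIF by 0.34. Esrrb, an orphan nuclear receptor, reached 338, 367 and 349 CPM in soft serum against 329, 323 and 330 CPM in stiff serum + LIF. The groups did not overlap, yet the difference of 0.10 ± 0.05 had an edgeR adjusted p of 0.394 and stayed within the margin.

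Tfcp2l1, a STAT3-induced factor that sustains self-renewal when overexpressed, had the opposite order. It measured 196, 206 and 200 CPM in soft serum and 218, 218 and 207 CPM in stiff serum + LIF. The ranges of Tfcp2l1 did not overlap and its difference was -0.09 ± 0.05 (edgeR adjusted p = 0.54), inside the margin. Against stiff serum at 150 ± 6.66 CPM, the soft substrate raised it by 0.42 and LIF by 0.52. The Krüppel-like factor Klf4, another STAT3 target, gave 159, 156 and 156 CPM against 166, 171 and 156 CPM, with a difference of -0.06 ± 0.05. Klf2 (0.12), Tbx3 (0.05), the marker Zfp42, also called Rex1 (0.03), the nuclear receptor Nr0b1 (0.01) and Fbxo15 (0.15) also matched. So did Klf5 and Gbx2, which passed the test for neither the soft substrate nor LIF against stiff serum.

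Nr5a2, a nuclear receptor that can drive Pou5f1, was the naïve factor past the test. It stood at 111, 111 and 110 CPM in soft serum against 98.5, 89.7 and 95.1 CPM in stiff serum + LIF, with no overlap. The difference was 0.23 ± 0.05 (edgeR adjusted p = 0.00446), and without library 2 of stiff serum + LIF it was 0.21 (edgeR adjusted p = 0.0529). Against stiff serum Nr5a2 rose by 0.36 on the soft substrate, and its difference with LIF was 0.14 (edgeR adjusted p = 0.19). Dppa3, Prdm14 and Tcl1 neither matched nor passed the test. Of these, Prdm14, a repressor of FGF signalling and DNA methylation, gave 8.29, 8.98 and 9.64 CPM against 8.11, 6.89 and 7.27 CPM, with an interval from 0.01 to 0.54.

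The receptor and its immediate signalling proteins gave no call. Of 10 genes, 7 matched, which were all those at 20 CPM or more, and none passed the edgeR test, against 1 at an unadjusted p under 0.05 and none with DESeq2. Lifr, the LIF-binding receptor chain, gave 190, 193 and 193 CPM in soft serum and 193, 203 and 198 CPM in stiff serum + LIF. Stat3 gave 99.4, 105 and 97.6 CPM against 108, 105 and 109 CPM, with a difference of -0.09 ± 0.06. Stat3 rose by 0.23 on the soft substrate and by 0.32 with LIF. Il6st, which encodes gp130, gave 102, 114 and 105 CPM against 117, 120 and 119 CPM and differed by -0.15 ± 0.05 (edgeR adjusted p = 0.171). It rose with LIF, by 0.27, while its difference on the soft substrate was 0.12 (edgeR adjusted p = 0.16). Lif itself gave 3.06, 3.03 and 2.96 CPM against 3.13, 3.48 and 3.48 CPM.

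Genes listed as STAT3 targets were mixed. Of 12 targets, 6 matched, 1 was higher and 1 lower, and the list's median difference was -0.09. At 20 CPM or more, 6 of 11 matched (54.5%). Socs3, the feedback inhibitor of the receptor (chr11:117966079-117970047, minus strand, GRCm38), stood at 58.8, 73.2 and 63.9 CPM in soft serum and at 78.6, 83.1 and 81.9 CPM in stiff serum + LIF. All soft serum libraries were below all stiff serum + LIF libraries and above the 48.3 ± 6.53 CPM (SD, n = 3) of stiff serum. The difference was -0.31 ± 0.07 (edgeR adjusted p = 0.0102). Socs3 rose by 0.44 on the soft substrate and by 0.76 with LIF, and it reached a mean of 86.1 CPM where both were present. Its call was lost without library 1 or 3 of soft serum or library 2 or 3 of stiff serum + LIF, with differences from -0.30 to -0.23 and edgeR adjusted p-values from 0.0981 to 0.221.

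Bcl3, an IκB family protein, and Junb, an AP-1 subunit, had the same order without passing the test. Bcl3 gave 92.2, 89.1 and 96.2 CPM against 105, 120 and 108 CPM, a difference of -0.26 ± 0.07 (edgeR adjusted p = 0.0581). Junb gave 17.4, 20.2 and 19.7 CPM against 23.8, 23.9 and 24.3 CPM, a difference of -0.33 ± 0.10 (edgeR adjusted p = 0.132). The groups did not overlap for either gene. Both rose with LIF, by 0.40 each, and neither passed the test on the soft substrate, where Bcl3 differed by 0.13 and Junb by 0.07. With DESeq2, Bcl3 also passed the test of the main comparison.

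Sgk1, a kinase induced by serum and glucocorticoids, went the other way. It stood at 307, 333 and 314 CPM in soft serum and at 268, 268 and 263 CPM in stiff serum + LIF, with no overlap and a difference of 0.26 ± 0.05 (edgeR adjusted p = 0.00287). The soft substrate raised Sgk1 by 0.27, and its difference with LIF was 0.01. The Pim kinases were split. Pim1 and Pim3 matched, and Pim2 gave 90.9, 79.7 and 98.3 CPM against 76.3, 79.6 and 78.7 CPM. Pim2 neither matched nor passed the main test (0.20 ± 0.07, edgeR adjusted p = 0.188), and it fell in both conditions against stiff serum, with differences of -0.46 on the soft substrate and -0.65 with LIF.

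The promoters of Socs3 and Sgk1, the target genes past the test in opposite directions, both held the letters TTCNNNGAA, the palindrome that STAT dimers bind. On RefSeq promoter windows (GRCm38.p6) this motif was found in 8.30% of 32851 windows, or for 9.55% of the 27025 genes with a window, and for 3 of the 11 listed STAT3 targets with a window, the third being Cish. The starts below are those of RefSeq, and for Socs3 the RefSeq window lies inside the longer gene model given above. The pattern reads the same on both strands, apart from the bases that stand at N. In the lines below the motif is in capitals, 5′ to 3′ on the strand of the gene.
Socs3, 154 bases before the RefSeq start, chr11:117969492-117969540, minus strand: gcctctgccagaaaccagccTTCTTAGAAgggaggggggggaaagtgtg
Sgk1, 223 bases before the RefSeq start, chr10:21881941-21881989, plus strand: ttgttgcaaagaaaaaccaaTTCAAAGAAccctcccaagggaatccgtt
Of 10 naïve factors with a window, Esrrb held the motif. A match of letters is a description of the sequence and not evidence of binding in these cells.

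Formative genes were split between some that were low in both conditions and a pair that was higher in soft serum. Of 10 genes, 4 matched and 2 were higher in soft serum, beside 0.407% of all genes, and the list's median difference was 0.09. At 20 CPM or more, 4 of 7 matched (57.1%, beside 91.4%). Against stiff serum 3 of the 10 fell on the soft substrate (median -0.26) and 8 fell with LIF (median -0.44). Pou3f1, a POU factor of the early post-implantation epiblast, gave 49.2, 44.7 and 52.0 CPM in soft serum and 47.9, 48.0 and 45.5 CPM in stiff serum + LIF. The groups overlapped well below the 81.1 ± 4.33 CPM of stiff serum, from which Pou3f1 fell, with differences of -0.74 on the soft substrate and -0.78 with LIF. The de novo methyltransferase Dnmt3b gave 301, 324 and 322 CPM against 299, 306 and 319 CPM, and Lef1, a WNT effector, had a difference of 0.01 ± 0.09. Both fell against stiff serum, Dnmt3b with differences of -0.37 on the soft substrate and -0.41 with LIF, and Lef1 with -0.52 and -0.53.

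Otx2, a homeobox factor that directs enhancers of the formative state (chr14:48657677-48673819, minus strand), was near its stiff serum level in soft serum. It measured 25.5, 20.7 and 25.7 CPM there, 18.2, 17.4 and 16.1 CPM in stiff serum + LIF and 26.4 ± 2.40 CPM (SD, n = 3) in stiff serum. The main groups did not overlap and differed by 0.48 ± 0.10 (edgeR adjusted p = 0.00412). Otx2 fell with LIF, with a difference of -0.63, and its difference on the soft substrate was -0.15 (edgeR adjusted p = 0.47). Without library 3 of stiff serum + LIF the main difference was 0.44 (edgeR adjusted p = 0.0766).

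Zic2, a zinc finger factor that acts with Otx2 in primed cells (chr14:122475435-122479852, plus strand), had the same order. It stood at 61.7, 51.6 and 58.1 CPM in soft serum, 44.1, 43.6 and 39.4 CPM in stiff serum + LIF and 54.9 ± 2.17 CPM in stiff serum. The difference was 0.44 ± 0.07 (edgeR adjusted p = 0.000171), with no overlap. Zic2 fell with LIF (-0.38) and differed by 0.05 on the soft substrate. Dnmt3a (0.14) matched, while Fgf5, Sall2, Sox3 and Tcf15 neither matched nor passed the test. Fgf5, the classical marker of the primed epiblast, was at low levels, at 2.57, 2.11 and 2.75 CPM against 1.07, 2.16 and 2.05 CPM, with an interval from -0.16 to 1.12.

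**Figure D2:**
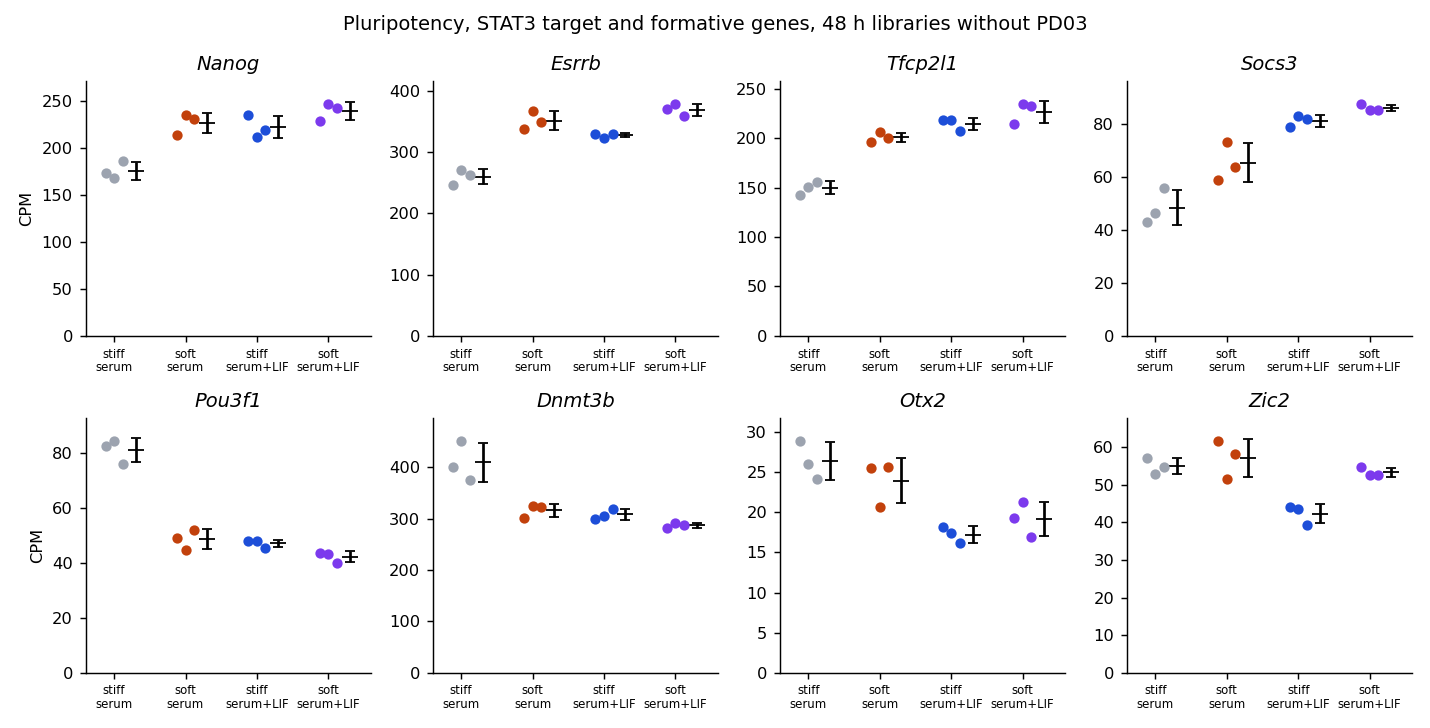
Level (CPM) of 8 pluripotency, STAT3 target and formative genes in the 12 libraries at 48 h without PD03. Each point is a library, grouped as stiff serum, soft serum, stiff serum + LIF and soft serum + LIF, with the mean and SD of each group beside its points. Nanog, Esrrb and Tfcp2l1 are higher, and Pou3f1 and Dnmt3b lower, in soft serum and in stiff serum + LIF than in stiff serum. Socs3 in soft serum lies between its stiff serum and stiff serum + LIF levels, and Otx2 and Zic2 in soft serum lie near their stiff serum level.

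General pluripotency factors, which define embryonic stem cells, were present in every library of both groups and differed little. All 7 genes of the list matched, with a median difference of 0.06. The match of Dppa4 (0.20) was lost in 6 of 14 other settings. Dppa4 passed the test with DESeq2, and also without the libraries low in mitochondrial mRNA (0.21, edgeR adjusted p = 0.0198). Pou5f1 gave 565, 595 and 583 CPM in soft serum and 612, 594 and 582 CPM in stiff serum + LIF. Sox2 gave 313, 305 and 325 CPM against 286, 279 and 273 CPM, which passed the test at 0.17 ± 0.04 (edgeR adjusted p = 0.0428) while its interval, 0.08 to 0.26, lay inside the margin. That call was lost in 9 of 14 other settings, including without library 1 or 3 of soft serum (edgeR adjusted p of 0.0876 and 0.246) and without each library of stiff serum + LIF (0.0624, 0.117 and 0.226).

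The study listed 137 genes of the pre-implantation epiblast and 197 of the post-implantation epiblast that were tested here. The study compared soft with stiff samples of this series over these lists, so their direction in the side comparisons is not independent evidence. Of the pre-implantation genes 85 matched, 1 was higher and 1 lower, with a median difference of 0.00. Of the post-implantation genes 119 matched, 5 were higher and 1 lower, with a median of 0.02. Over all genes 0.407% were higher and 0.486% lower. At 20 CPM or more, 75 of 86 pre-implantation genes (87.2%) and 110 of 129 post-implantation genes (85.3%) matched, beside 91.4%. Without overlap, 12 pre-implantation genes were higher and 16 lower, and 32 post-implantation genes were higher and 26 lower, beside 8.32% and 9.09% of all genes. Against stiff serum, 40 post-implantation genes fell on the soft substrate and 28 fell with LIF, while 23 and 18 pre-implantation genes rose. Without library 2 of stiff serum and library 2 of soft serum + LIF, which are low in mitochondrial mRNA, the calls in either direction among post-implantation genes went from 45 to 28 on the soft substrate and from 28 to 16 with LIF, and those among pre-implantation genes from 27 to 24 and from 20 to 11. The members past the main test were looked at after their values were seen. The higher ones were Hesx1 among pre-implantation genes, and Otx2, Crabp1 (0.64), Elmo1 (0.37), Ldhb (0.34) and Fxyd6 (0.29) among post-implantation genes. The lower ones were Mylpf (-0.39) and Ptpn14 (-0.26).

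Targets of ERK gave no call. Of 16 genes 9 matched, and none passed the edgeR test, against 5 at an unadjusted p under 0.05 and 1 (Dusp4) with DESeq2. The difference was negative for 11 (list median -0.09), of which 7 were lower without overlap, beside 9.09% of all genes. At 20 CPM or more, 9 of 13 matched (69.2%, beside 91.4%). Dusp4, a phosphatase that ERK induces and that acts on it in return, gave 22.6, 23.4 and 26.2 CPM in soft serum against 32.2, 28.4 and 31.1 CPM in stiff serum + LIF, without overlap. Its difference was -0.35 ± 0.10 (edgeR adjusted p = 0.0785). Against stiff serum Dusp4 fell, with differences of -0.70 on the soft substrate and -0.35 with LIF, and no gene of the list was called for LIF without the libraries low in mitochondrial mRNA. The growth factor targets Dusp6 (-0.10), Spry2 (-0.14), Spry4 (-0.11), Etv5 (0.07) and Egr1 (-0.07) matched in the main fit, with limits under a pool term that are given below.

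Other signals of the early embryo gave 1 call. In the NODAL and TGF-beta list 7 of 10 genes matched and Lefty2, a secreted NODAL inhibitor that NODAL itself induces, was higher. Lefty2 gave 52.9, 50.1 and 57.0 CPM in soft serum and 37.8, 45.4 and 39.5 CPM in stiff serum + LIF, a difference of 0.38 ± 0.09 (edgeR adjusted p = 0.0105) with no overlap. Without library 3 of soft serum, or library 1 or 3 of stiff serum + LIF, Lefty2 differed by 0.35 to 0.37 (edgeR adjusted p from 0.0849 to 0.0962). Nodal (0.09) and its coreceptor Tdgf1 (0.02) matched. Of 7 BMP and Id genes 4 matched and none passed the edgeR test (2 at an unadjusted p under 0.05, 0 with DESeq2). Of 8 WNT targets 4 matched and none passed it (0 at an unadjusted p under 0.05, 0 with DESeq2), with Axin2, the negative feedback target, at 0.05 ± 0.08.

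Glycolysis genes gave no call. All 15 enzymes and transporters matched, beside 91.4% of all genes at 20 CPM or more, with a median difference of -0.05. The difference was negative for 11, of which 5 were lower in soft serum without overlap, beside 9.09% of all genes, and none passed the edgeR test (2 at an unadjusted p under 0.05, 0 with DESeq2). The glucose transporter Slc2a1 gave 480, 479 and 484 CPM in soft serum against 501, 497 and 501 CPM in stiff serum + LIF. Gapdh gave 3540, 3367 and 3547 CPM against 3496, 3638 and 3508 CPM. Against stiff serum 6 of the 15 fell on the soft substrate and 2 fell with LIF. Without the libraries low in mitochondrial mRNA the calls in either direction went from 7 to 3 on the soft substrate and from 2 to 0 with LIF. In the list of amino acid stress and serine synthesis 8 of 13 genes matched and Atf4, the transcription factor of the stress response, was higher, at 140, 141 and 145 CPM against 130, 118 and 116 CPM (0.23 ± 0.05, edgeR adjusted p = 0.0182). The call of Atf4 was lost without library 3 of soft serum (edgeR adjusted p = 0.0879) and without library 2 or 3 of stiff serum + LIF (0.0845 and 0.167).

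**Figure D3:**
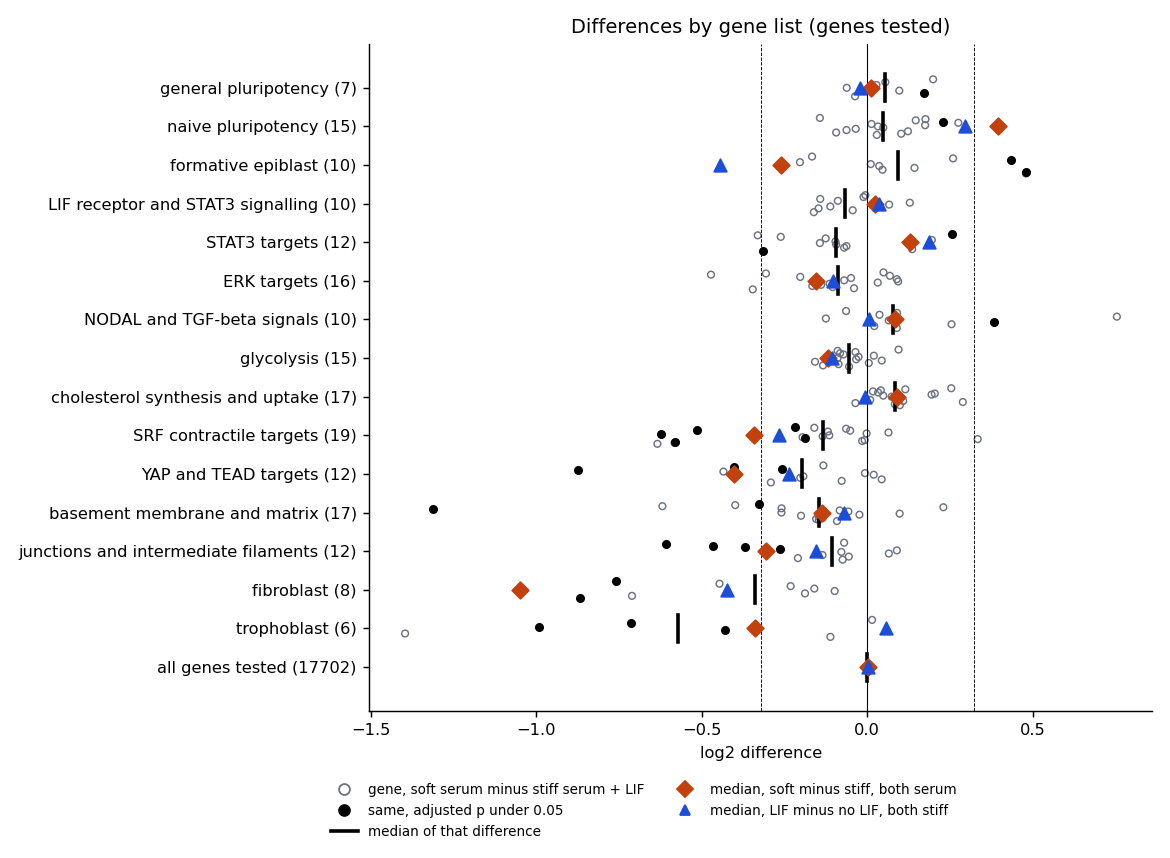
Differences for 15 lists of genes and the median of all 17702 tested genes (horizontal axis, log2; dashed lines at the margin of 0.32). Circles are single genes for soft serum minus stiff serum + LIF, filled where the edgeR adjusted p is under 0.05, and bars their medians. Diamonds are list medians for the soft substrate without LIF and triangles those for LIF on the stiff substrate, each against stiff serum. Naïve and formative medians of the main difference lie near 0 while the reference medians lie 0.26 to 0.44 away from it, and the filled circles below -0.32 belong to the contractile, YAP, matrix, filament, fibroblast and trophoblast lists.

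Some contractile genes were lower in soft serum than in stiff serum + LIF. Of 19 SRF target genes tested, 11 matched, 5 were lower, of which Tpm1 and Myh9 also lay inside the margin, and none was higher, beside 0.486% lower calls over all genes, and the list's median difference was -0.13. Against stiff serum 16 of the 19 fell on the soft substrate (median -0.34) and 9 fell with LIF (median -0.27). Without the libraries low in mitochondrial mRNA these counts were 13 and 5. The study showed Acta1, Acta2, Tagln, Cnn1 and Flnc as examples from this series, so for these genes the fall on the soft substrate is not independent evidence.

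Flnc, the muscle filamin that crosslinks actin (chr6:29433256-29461883, plus strand), gave 49.0, 52.5 and 50.7 CPM in soft serum and 75.2, 74.0 and 84.9 CPM in stiff serum + LIF. Stiff serum was at 95.7 ± 5.75 CPM (SD, n = 3), so that all soft serum libraries lay below all libraries of both stiff groups. The difference was -0.62 ± 0.07 (edgeR adjusted p = 8.83e-08), beside -0.92 for the soft substrate and -0.29 for LIF. Cald1, an actin and myosin binding protein (chr6:34598500-34775473, plus strand), gave 78.6, 76.0 and 81.6 CPM against 105, 113 and 119 CPM. It differed by -0.51 ± 0.07 (edgeR adjusted p = 3.66e-06), beside -0.82 for the soft substrate and -0.30 for LIF. The calls of Flnc and Cald1 held when any 1 library was left out.

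The non-muscle myosin heavy chain Myh9 (-0.22 ± 0.05, edgeR adjusted p = 0.00671), the calponin-related Tagln (-0.58 ± 0.15, edgeR adjusted p = 0.0447) and the tropomyosin Tpm1 (-0.19 ± 0.05, edgeR adjusted p = 0.0391) were lower too. Of the 6 fits that leave out a library, these calls were lost in 4 for Myh9 and in all 6 for Tagln and Tpm1, with differences from -0.66 to -0.46 for Tagln. Acta2, smooth muscle actin, gave 9.92, 8.89 and 7.19 CPM against 12.3, 15.7 and 11.4 CPM, which did not pass (-0.58 ± 0.16, edgeR adjusted p = 0.0517). From 23.3 ± 2.77 CPM in stiff serum Acta2 fell, with differences of -1.42 on the soft substrate and -0.84 with LIF. With DESeq2, Acta1 and Acta2 passed as well.

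The adhesion genes Vcl and Zyx matched. Vcl, which encodes the adhesion protein vinculin, gave 105, 111 and 110 CPM in soft serum and 108, 102 and 116 CPM in stiff serum + LIF, with an interval from -0.10 to 0.10. Vcl fell against stiff serum both on the soft substrate (-0.25) and with LIF (-0.25). Zyx, zyxin, gave 50.0, 49.6 and 50.6 CPM against 54.4, 53.9 and 59.2 CPM, below the 81.8 ± 8.94 CPM of stiff serum. The groups did not overlap, and the difference of Zyx was -0.16 ± 0.07 (edgeR adjusted p = 0.348), inside the margin. The match of Zyx was lost in 3 of 14 other settings, among them without library 1 or 2 of stiff serum + LIF. Flna, Actb, Actg1, Actn1, Cnn2, Tpm4 and Srf itself also matched, at -0.13 to 0.06. Of the 17 SRF targets with a promoter window, 6 held a CArG box, the SRF motif, on either strand, beside 1.81% of all genes with a window (1.63% of windows). They were Acta1, Actg1, Cnn2, Myl9, Srf and Vcl, none of which passed the main test.

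Targets of YAP and TEAD held the difference with the smallest p of all genes tested. Of 12 genes, 3 matched, 3 were lower, beside 0.486% of all genes, and none was higher, with a median difference of -0.20. At 20 CPM or more, 3 of 8 matched (37.5%, beside 91.4%). Thbs1, a secreted matricellular glycoprotein (chr2:118111876-118127133, plus strand), gave 27.2, 30.9 and 25.8 CPM in soft serum and 45.0, 51.7 and 56.7 CPM in stiff serum + LIF. In stiff serum Thbs1 was at 70.2 ± 2.93 CPM (SD, n = 3), and the 3 groups did not overlap. The difference was -0.87 ± 0.08 (edgeR adjusted p = 4.85e-10), beside -1.33 for the soft substrate and -0.46 for LIF. Thbs1 was among the study's own examples from this series for the soft substrate. It passed the test in all 14 other settings and in all 45 fits with a pool term.

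Ptpn14, a phosphatase that restrains YAP, gave 89.8, 88.7 and 84.7 CPM against 98.5, 101 and 114 CPM (-0.26 ± 0.06, edgeR adjusted p = 0.0143). Crim1, a transmembrane BMP binding protein, gave 14.1, 10.9 and 11 CPM against 14.5, 15.2 and 17.4 CPM (-0.40 ± 0.10, edgeR adjusted p = 0.0412). The groups did not overlap for either gene, though the call of Ptpn14 was lost in 5 and that of Crim1 in 4 of the 6 fits that leave out a library. The matricellular Ccn2 (-0.08) and the LIM protein Ajuba (-0.01) matched, as did Tead1 (-0.13). Ccn1 was at 42.6, 44.3 and 48.9 CPM against 56.2, 51.1 and 58.5 CPM and did not pass (-0.29 ± 0.10, edgeR adjusted p = 0.181).

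The letters GGAATG, the core that TEAD factors bind, were found on either strand in 14.7% of all promoter windows, or for 16.6% of genes with a window, and for 8 of the 9 listed YAP and TEAD genes with a window. The lines below show the matches of the called genes with a window, with the motif in capitals, 5′ to 3′ on the gene's strand. In Ptpn14 the letters lie on the opposite strand and read CATTCC.
Ptpn14, 146 bases before the RefSeq start, chr1:189728102-189728147, plus strand: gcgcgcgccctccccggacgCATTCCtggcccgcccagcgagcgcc
Crim1, 79 bases before the RefSeq start, chr17:78200149-78200194, plus strand: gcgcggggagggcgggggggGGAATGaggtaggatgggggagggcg
The other genes with a match were Ajuba, Amotl2, Ankrd1, Axl, Ccn1 and Lats2, none of which passed the main test.

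Keratins and vimentin were lower in soft serum. In the list of junctions and intermediate filaments 4 of 12 genes were lower, beside 0.486% of all genes, and none was higher. The 4 lower genes were all filament genes. Another 4 matched, and at 20 CPM or more 4 of 9 did (44.4%, beside 91.4%). Krt18, a keratin of simple epithelia, gave 39.0, 43.9 and 39.5 CPM in soft serum and 52.8, 56.6 and 59.2 CPM in stiff serum + LIF, with a difference of -0.46 ± 0.08 (edgeR adjusted p = 0.000214). Its partner Krt8 differed by -0.37 ± 0.08 (edgeR adjusted p = 0.0103) and Krt19 by -0.61 ± 0.13 (edgeR adjusted p = 0.00561). Without library 3 of stiff serum + LIF, Krt8 differed by -0.25 (edgeR adjusted p = 0.37) and Krt19 by -0.48 (edgeR adjusted p = 0.191). Without library 2 of soft serum Krt19 had an edgeR adjusted p of 0.0685, and without library 1 or 3 Krt8 had 0.11 and 0.0987.

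Vim, the mesenchymal filament protein, gave 197, 203 and 199 CPM against 247, 235 and 237 CPM (-0.26 ± 0.04, edgeR adjusted p = 0.000414). Against stiff serum all 4 filament genes fell on the soft substrate, with -0.25 for Vim and -0.62 for Krt18, and none passed the test for LIF. Vim was also among the 3 genes that LIF raised on the soft substrate, where its mean with LIF was 234 CPM. The junction genes Cdh1 (E-cadherin, -0.07), Epcam (-0.06) and Tjp1 (-0.08) matched, and Lmna (-0.07), of the nuclear lamina, did so too.

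Matrix genes mostly had negative differences, and a collagen and a collagen-modifying enzyme passed the test as lower. Of 17 matrix genes 9 matched and 2 were lower, beside 0.486% lower calls over all genes, with a median difference of -0.15. The difference was negative for 15, of which 11 were lower without overlap (beside 9.09% of all genes), and at 20 CPM or more 9 of 13 matched (69.2%, beside 91.4%). The laminin chains Lama1 (-0.09), Lama5 (-0.15), Lamb1 (-0.15) and Lamc1 (-0.13), the linkers Nid1 (-0.02) and Nid2 (0.10), Sparc (-0.06) and Fn1, fibronectin (-0.08), were inside the margin, as was the type IV collagen Col4a1 (-0.15). Lama1 and Nid1 rose in both conditions against stiff serum, by 0.31 and 0.27 on the soft substrate and by 0.40 and 0.29 with LIF. Col12a1, a collagen that decorates fibrils, gave 1.87, 1.73 and 1.17 CPM in soft serum and 3.63, 4.59 and 3.74 CPM in stiff serum + LIF, a difference of -1.31 ± 0.25 (edgeR adjusted p = 0.00111). Plod2, a lysyl hydroxylase that prepares collagen crosslinks, gave 35.4, 36.7 and 33.9 CPM against 44.4, 45.3 and 43.3 CPM (-0.33 ± 0.07, edgeR adjusted p = 0.00462). Col12a1 and Plod2 fell on the soft substrate (-1.50 and -0.40), and their differences with LIF were -0.19 and -0.07. The call of Plod2 was lost without library 3 of soft serum (edgeR adjusted p = 0.0855) and without library 2 of stiff serum + LIF (0.0615).

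**Figure D4:**
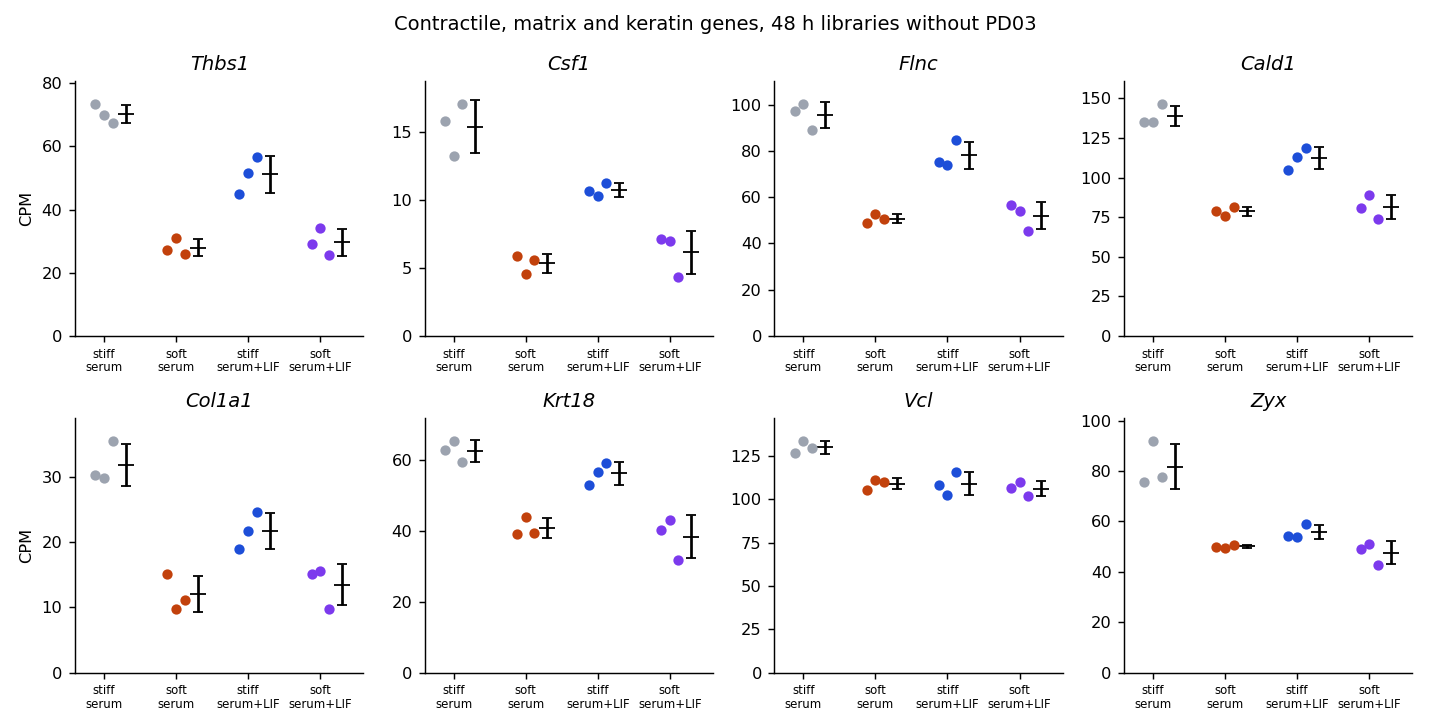
Level (CPM) of 8 contractile, matrix, keratin and adhesion genes in the 12 libraries at 48 h without PD03. Points are libraries in the order stiff serum, soft serum, stiff serum + LIF and soft serum + LIF, with the mean and SD of each group. For Thbs1, Csf1, Flnc, Cald1, Col1a1 and Krt18 the soft serum libraries lie below all stiff serum + LIF libraries, while for Vcl the groups overlap and for Zyx they are close, both below the level of stiff serum.

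Of the markers of other cell types, 6 were lower in soft serum and none was higher, beside 0.486% and 0.407% of all genes. The number of markers tested is given list by list below. The fibroblast list had 8 of 9 genes tested, of which Col1a1 and Twist1 were lower, none was higher and all 8 had negative differences (median -0.34, beside -0.001 for all genes). Its summed level was 28 to 34.5 CPM in soft serum, 40.2 to 48.2 CPM in stiff serum + LIF and 56.2 to 61.7 CPM in stiff serum. Col1a1, the main fibrillar collagen chain, made up the largest share, with 15, 9.75 and 11.2 CPM against 18.9, 21.7 and 24.5 CPM (-0.87 ± 0.15, edgeR adjusted p = 0.000636). The call of Twist1 (-0.76, edgeR adjusted p = 0.0487) was lost when any 1 of the 6 libraries was left out. The fibroblast genes Lum (2 reads over the 6 libraries, not tested), Postn, Dcn and Col3a1 were each under 1 CPM in all 6 libraries. The part of such cells in the matrix and contractile differences was not tested.

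Among 6 trophoblast markers Hand1, Krt7 and Gata3 were lower and none higher, beside 0.486% lower calls over all genes, with a median difference of -0.57. Tfap2c, the only marker of the list at 20 CPM or more, matched at 0.02. Summed levels were 61.6 to 67.7 CPM in soft serum and 70.6 to 80.4 CPM in stiff serum + LIF. Hand1, a basic helix-loop-helix factor of trophoblast giant cells and mesoderm, gave 7.05, 6.20 and 6.63 CPM against 8.75, 9.11 and 14.1 CPM (-0.71 ± 0.13, edgeR adjusted p = 0.00111). Without library 3 of stiff serum + LIF, Hand1 differed by -0.42 (edgeR adjusted p = 0.252) and Krt7 by -0.68 (edgeR adjusted p = 0.206). The call of Gata3 (-0.43, edgeR adjusted p = 0.0233) was lost when any 1 of the 6 libraries was left out. The defining markers Cdx2 and Elf5 did not pass, and Elf5 was at 0 to 0.278 CPM. The part of any such cells in the keratin differences was not tested.

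The other marker lists gave 1 call. Nes, nestin, an intermediate filament of neural progenitors, was lower in soft serum (-0.37 ± 0.07, edgeR adjusted p = 0.000781), at 29.9, 29.4 and 27 CPM against 36.7, 38.5 and 36.6 CPM. The other 3 neuroectoderm markers tested, Sox1 (-0.17), Pax6 (0.19) and Zic1 (-1.07), did not pass, and the summed level was 72.7 to 73.8 CPM in soft serum and 77.6 to 80.8 CPM in stiff serum + LIF. Of 10 primitive endoderm markers none passed the edgeR test, against 4 at an unadjusted p under 0.05 and none with DESeq2. Their summed level was 259 to 282 CPM in soft serum and 270 to 303 CPM in stiff serum + LIF. Of 7 primitive streak markers tested none passed the edgeR test, against 3 at an unadjusted p under 0.05 and none with DESeq2.

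Among all genes, those with the largest differences at 5 CPM or more were picked by a fixed rule, 12 in each direction. Csf1, the macrophage colony-stimulating factor (chr3:107741048-107760469, minus strand), headed the lower genes, with 5.87, 4.56 and 5.56 CPM in soft serum and 10.7, 10.3 and 11.3 CPM in stiff serum + LIF. It differed by -1.02 ± 0.15 (edgeR adjusted p = 2.26e-05), beside -1.53 for the soft substrate and -0.52 for LIF. Besides Thbs1, Col1a1 and Hand1, the others were coagulation factor F5 (-0.92), the myelin protein gene Pmp22 (-0.71), the transcription factors Ets1 (-0.70) and Runx1 (-0.67), the guanine nucleotide exchange factor Rin3 (-0.68), Atxn1 (-0.68), the annexin Anxa1 (-0.66) and Morc4 (-0.66). Of the 6 fits that leave out a library, the call was lost in 4 for Ets1, Runx1, Atxn1 and Morc4 (highest edgeR adjusted p of 0.0724, 0.164, 0.245 and 0.224), in 2 for Pmp22 (0.119) and in 1 for F5 (0.0577, without library 3 of stiff serum + LIF) and Anxa1 (0.0581, without library 2 of soft serum). The calls of Rin3 and Csf1 held in all 6.

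Srgn, the proteoglycan of secretory granules (chr10:62493833-62527451, minus strand), headed the higher genes. It gave 10.7, 9.75 and 7.29 CPM in soft serum and 5.40, 5.15 and 4.71 CPM in stiff serum + LIF (0.87 ± 0.17, edgeR adjusted p = 0.00238). The soft substrate raised Srgn by 0.72, and its difference with LIF was -0.15. The SOXB2 factor Sox21 gave 9.72, 11.8 and 9.84 CPM against 7.25, 7.37 and 6.65 CPM, without overlap, and differed by 0.57 ± 0.14 (edgeR adjusted p = 0.0263). The others were the retinoic acid binding protein Crabp1 (0.64), the cadherin-related Cdhr1 (0.57), the ciliary gene Ttc21b (0.43), the unconventional myosin Myo6 (0.43), the guanine nucleotide exchange factor Mcf2 (0.39), the noncoding RNAs Rn7s1 (0.67) and Rprl3 (0.78), and Otx2 and Zic2. Of the 6 fits that leave out a library, the call was lost in 4 for Sox21, Myo6 and Rprl3 (highest edgeR adjusted p of 0.191, 0.279 and 0.18), in 3 for Cdhr1 and Ttc21b (0.16 and 0.0677) and in 2 for Crabp1 (0.0672). Without library 3 of stiff serum + LIF the calls of Srgn (0.0549), Mcf2 (0.0664) and Rn7s1 (0.0766) were lost, while that of Zic2 held in all 6.

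The genes past 2-fold, looked at after their values were seen, were nearly all at low levels. The higher ones were Hesx1, an anterior epiblast homeobox factor (1.15 ± 0.25, edgeR adjusted p = 0.00387), Myo7a, an unconventional myosin (1.33 ± 0.29, edgeR adjusted p = 0.00576), and Lrrc4b. Hesx1 was at 2.24 to 2.83 CPM against 0.782 to 1.39 CPM, and Myo7a at 2.61 to 3.21 CPM against 0.924 to 1.43 CPM. Lrrc4b rested on 32 reads against 2, a ratio of CPM of 12.7 with an exact 95% counting interval of 3.24 to 109, which covers counting error only. Besides Csf1 and Col12a1, the lower ones were Edn1, the vasoconstrictor peptide endothelin (-1.21 ± 0.23, edgeR adjusted p = 0.00167), the serine protease Prss23 (-1.10 ± 0.22, edgeR adjusted p = 0.00287) and the axon guidance receptor Robo2 (-1.21).

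Genes that respond to the substrate in libraries outside this comparison were found from soft and stiff libraries at 24 h in serum + LIF, which shared a pool. Of the 182 genes higher on the soft substrate there (1.03%), 18 were higher and none lower in the main comparison, beside 0.407% and 0.486% of all genes, and 106 matched, with a median difference of 0.10. Of the 446 genes lower on the soft substrate there (2.52%), none was higher, 65 were lower and 196 matched, with a median of -0.15. A second list from libraries outside this comparison held the genes that LIF changed in the same direction on both substrates under PD03. It was short. Of 2 genes higher with LIF there, 1 was lower in the main comparison and 1 matched. Of 7 lower with LIF there, 1 was higher, none was lower and 5 matched, with a median of 0.15.

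The number of calls depended on the fit. With pool as a term, estimated from the 2 groups of the series that span pools, the 45 possible assignments of pools to columns gave 3 to 81 calls, and 4146 to 4587 matched genes at a median SE of 0.21 to 0.22. Thbs1 passed in 45 of the 45 assignments (differences from -1.10 to -0.61), Flnc in 38, Peg10 in 30, Cald1 in 27, Csf1 in 25, Krt18 in 18, Zic2 in 13, Otx2 and Nr5a2 in 3, and Socs3 and Sgk1 in none (-0.42 to -0.23 and 0.18 to 0.33). Peg10, an imprinted gene of retroviral origin, gave 1957, 1719 and 1871 CPM against 2339, 2575 and 2809 CPM (-0.48 ± 0.06, edgeR adjusted p = 3.99e-06). Of the 11 matched naïve factors, 10 had differences, taken without their intervals, inside the margin in all assignments. These ran from -0.20 (Zfp42) to 0.24 (Klf2), and Gbx2 ran from -0.52 to 0.27. By the interval, Gbx2 lost its match under the assignments with the fewest and the most calls. Fbxo15 lost it under the assignment with the most calls, and without library 1 or 3 of soft serum or library 1 of stiff serum + LIF. Of the 4 matched formative genes, the difference of Dnmt3b stayed inside (-0.11 to 0.16), while those of Dnmt3a (-0.02 to 0.33), Pou3f1 (-0.45 to 0.52) and Lef1 (-0.82 to 0.58) did not. Among matched ERK targets, Egr1 ran from -0.61 to 0.66, Spry4 from -0.45 to 0.17 and Spry2 from -0.34 to 0.03. By the interval, Dusp6, Spry4 and Egr1 lost their match under the assignments with the fewest and the most calls. Spry2 lost it under that with the fewest, and Etv5 kept it under both. Without library 3 of stiff serum + LIF 48 genes were called, 21 higher and 27 lower, and 47 of them were among the 158.

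**Figure D5:**
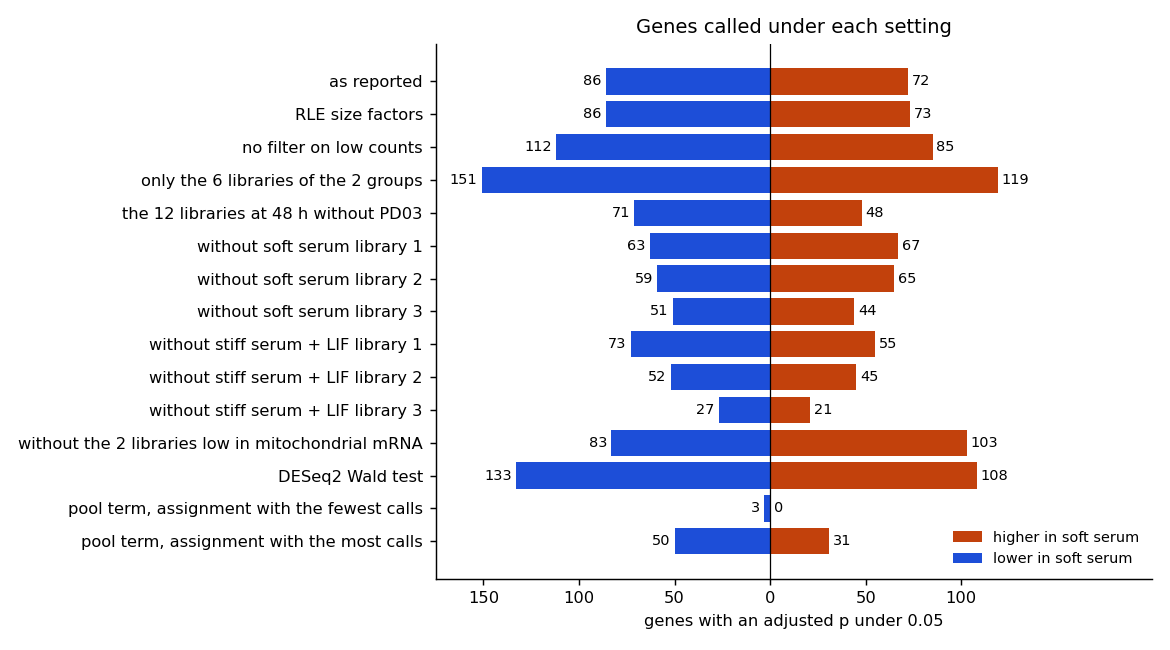
Number of genes with an adjusted p under 0.05 under each setting of the fit, with genes lower in soft serum to the left of 0 and genes higher to the right. The count of 72 higher and 86 lower genes ranges from 119 and 151 with the 6 libraries alone to 0 and 3 under the pool assignment with the fewest calls, and leaving out library 3 of stiff serum + LIF gives 21 and 27.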

How the data were processed

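RNA-seq counts of 49671 genes in 36 libraries of mESCs in 11 groups were analysed. The authors deposited raw counts per gene, which they obtained by aligning reads to GRCm38 with STAR 2.5.2a and counting with HTSeq, without normalization. The strand setting and the treatment of reads with several matches are not given in the sources used here, so genes with near-identical copies and overlapping genes are uncertain. From these counts, genes were filtered (filterByExpr), scaled by TMM and fitted by the quasi-likelihood test of edgeR 4.0.16 (R 4.3.3) over all 36 libraries, with 1 coefficient per group and Benjamini-Hochberg adjustment over 17702 genes, which held 99.9% of counts. The fit was tested on simulated data. DESeq2 1.42.0 was an alternative. Levels (CPM) are counts scaled to a common total of TMM-scaled libraries, and library numbers are names only. Coordinates are GENCODE on GRCm38.

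Totals were 10405696 to 26635239 counts, and in precision the median SE was 0.14 (log2). Genes named were members of fixed lists, the 12 per direction with the largest difference at a mean of 5 CPM or more without overlap, and those of the side comparisons by the same rule. A gene that this rule names is not reported here. Members and lists were chosen with earlier results of these data known. Alternatives covered scaling, filter, libraries in the fit, DESeq2, pool, margin, interval and each library left out.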

Additional observations from a re-analysis of the deposited data

Results flagged for a closer look

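The effect of the soft substrate differed with and without LIF for 15 genes by the edgeR interaction term, which uses all 12 libraries at 48 h without PD03. Among pluripotency and signalling genes, Tfcp2l1 had an interaction of 0.34 (edgeR adjusted p = 0.0375), from 0.42 for soft minus stiff without LIF to 0.08 with it. Pou3f1 had -0.58, from -0.74 to -0.15, and Pim2 had -0.53 (edgeR adjusted p = 0.00612), from -0.46 to 0.07. In all 3 the substrate difference was smaller in size when LIF was present.

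Among genes of adhesion and the cytoskeleton, Zyx had an interaction of -0.47, from -0.70 without LIF to -0.23 with it. Thbs1 had -0.54, from -1.33 to -0.79, and Parva, an adhesion adaptor, had -0.68, from -0.89 to -0.22. Tns1, tensin, had 0.50, from 0.42 to -0.07. Sema6a had -0.63, from -0.92 to -0.29, and Jam2, a junctional adhesion molecule, had 0.38 (edgeR adjusted p = 0.00612), from 0.53 to 0.15.

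The remaining genes were Peg10 at -0.41 (from -0.70 to -0.29), Rpl29 at -0.50 (from -0.22 to 0.29), Gapdh at -0.32 (from -0.24 to 0.08), the metallothionein Mt1 at -0.43 (from -0.49 to -0.06), the lactate transporter Slc16a3 at -0.52 (from -0.56 to -0.04) and Kat6b at 0.28 (from 0.38 to 0.10). Except for Jam2 and Pim2, the edgeR adjusted p-values were 0.0365 to 0.0419. Library 2 of stiff serum and library 2 of soft serum + LIF, which are low in mitochondrial mRNA, both enter the interaction. Without them Jam2 alone passed, at 0.39 (edgeR adjusted p = 0.0358).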

How the results depend on the processing

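The main comparison called 158 genes, 72 higher and 86 lower, and matched 7373. With only the 6 libraries 270 were called, 119 higher and 151 lower, and with DESeq2 241, of which 133 were lower. Of the 158, 149 and 156 were called there. With a pool term, the assignment with the fewest calls gave 3 (0 higher, 3 lower, 4411 matched) and that with the most gave 81 (31 higher, 50 lower, 4226 matched). The pool of each column is not given, so neither assignment is known to be right, and pool and group cannot be told apart without the term.

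Leaving out 1 library gave 48 to 130 calls, 21 to 67 higher and 27 to 73 lower, and 6598 to 6769 matched genes. The fewest came without library 3 of stiff serum + LIF (48), followed by library 3 of soft serum (95) and library 2 of stiff serum + LIF (97). Other scaling (159), no filter (197), the 12 libraries at 48 h without PD03 (119) and leaving out the libraries low in mitochondrial mRNA (186, chosen after seeing the data) stayed within 1.5 times the count. That last fit moved the higher share of calls from 45.6% to 55.4%. Of 48 named genes past the main test, 0 changed sign under the alternatives or any pool assignment. Of 128 named genes that matched without passing it, the difference changed sign for 62 under an alternative and for 103 over the pool assignments. Matched genes were chosen for lying near 0 and called genes for lying away from it, so this contrast follows from the choice. Named genes that neither matched nor passed the test were not counted. Under a margin of 0.58 in place of 0.32, 10604 genes matched, and 8110 did with a 90% interval. No paired analysis was possible because the columns of the count table carry no replicate numbers. Depth limits what can be matched: no gene under 1 CPM had an interval inside the margin.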

Other observations

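Genes of cholesterol synthesis and uptake mostly had positive differences, and none passed the test. Of 17 genes, 13 matched, 15 had positive differences and the median was 0.08, beside -0.001 over all tested genes. By the edgeR test 0 passed, against 5 at an unadjusted p under 0.05 and none with DESeq2. Values ranged up to 0.29 for Pmvk, a kinase of the mevalonate route, and 0.25 for Insig1, a sterol sensor.

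Among the genes with the largest rise with LIF on the stiff substrate, chosen by rule, 2 outside the pluripotency lists also rose on the soft substrate. Khdc3, a maternal factor of the oocyte and early embryo, gave 17, 13.2 and 15.8 CPM in soft serum and 17.9, 14.3 and 15.7 CPM in stiff serum + LIF. From 8.92 CPM in stiff serum it rose by 0.79 on the soft substrate and by 0.85 with LIF, and the main difference was -0.06. The zinc finger gene Zfp607b rose by 0.71 and 0.68, with a main difference of 0.03. These comparisons share the stiff serum libraries.

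Histone genes of the replication-dependent kind were not called by the edgeR test in 59 cases, against 7 at an unadjusted p under 0.05 and 1 with DESeq2, and 18 matched. Of 84 ribosomal protein genes 78 matched, and Rps27 was higher (0.23, edgeR adjusted p = 0.0207). None of 13 mitochondrially encoded mRNAs matched or passed the edgeR test, against 2 at an unadjusted p under 0.05 and none with DESeq2.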
